A study of Penicillium oxalicum with 6 samples.

Results

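In the cellulolytic mould Penicillium oxalicum, 130 of 9834 genes were abundant and had nearly the same level in the POX05503 mutant and in its comparison strain. They were chosen by the measured values themselves. A gene was taken when its mean FPKM (fragments per unit of gene length and of library depth) was at least 300 in each strain and the absolute value of R was below 0.2. R is the log2 ratio of mean FPKM in MuPOX05503 over mean FPKM in Ku70, with 1 added to each mean. Levels and R below are therefore descriptions, and the calls of the genome-wide test among these genes, given further on, support nothing about them. Of 392 genes that reached 300 FPKM in each strain, 125 had an R of 0.2 or more, 137 had an R of -0.2 or less, and the 130 lay between.

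RNA was sequenced from mycelium of 2 strains with 3 libraries each. MuPOX05503 is the strain mutated in POX05503, and Ku70 is the strain mutated in Ku70, a protein of non-homologous end joining whose loss eases targeted gene replacement in fungi. About 1 g of hyphae had been shaken for 24 h at 28 °C and 180 rpm in 100 mL of medium whose carbon source was 1% Avicel, purified microcrystalline cellulose. Ku70-mutant spores are named as the inoculum in the protocol shared by all libraries. Whether MuPOX05503 carries the Ku70 mutation too, whether it is 1 transformant, and whether the 3 libraries of a strain are separate cultures is not stated. Spread between libraries, which is all that any p-value here measures, may therefore be technical. The series asks how protein kinases act on cellulase and xylanase genes.

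In filamentous fungi, transcripts that stay abundant across conditions commonly encode ribosomal proteins, translation factors, histones, glycolytic enzymes and parts of the respiratory chain. Such genes are the usual candidates for reference genes in quantitative PCR, where a level that does not move with the treatment is needed. Genes for secreted hydrolases, by contrast, are known to be switched on by cellulose and off by easily used sugars. No product stands beside an identifier in the files, and 0 of the 9834 identifiers matched the RefSeq table of assembly ASM172317v3. The 130 genes are therefore described by identifier, level, length and spread, with no role given to any of them.

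The libraries held 13653016 to 14263916 expected counts. POX05503 had 0 counts in each MuPOX05503 library and 470 to 539 in the Ku70 libraries, which matches the labels. No pair of libraries was identical, and the 3 libraries of a strain differed by far more than counting noise over the 130 genes. Chi-square per degree of freedom was 35.3 to 149 in MuPOX05503 and 55.1 to 166 in Ku70. Over all tested genes it was 10.3 to 46.1 in MuPOX05503 and 14.4 to 28.6 in Ku70. At a given relative spread this measure grows with the count, so it does not compare the spread of the 130 genes with that of others. All 130 genes passed the filter of the genome-wide test. The lowest count of any of them in any library was 815, and the median gene had a mean expected count of 5458. At that depth counting error alone gives a coefficient of variation (CV, the SD as a percentage of the mean) of 1.35%. Such intervals cover counting error only.

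The 130 genes spanned a wide range of levels. Their mean FPKM ran from 314 to 8661 in MuPOX05503, with a median of 662, and from 302 to 8074 in Ku70, with a median of 646. The median of all 8801 genes tested was 28.4 FPKM in MuPOX05503 and 25.5 FPKM in Ku70. By mean FPKM over all 6 libraries, 3 of the 130 were among the 10 most abundant genes, 10 among the top 100, and 39 among the top 200. In 19 of the 130 the mean reached 1000 FPKM in each strain. In bulk RNA an FPKM is a share of the RNA sequenced, so fewer cells and less RNA per cell cannot be told apart, and an equal FPKM is an equal share, not an equal number of molecules.

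**Figure D1:**
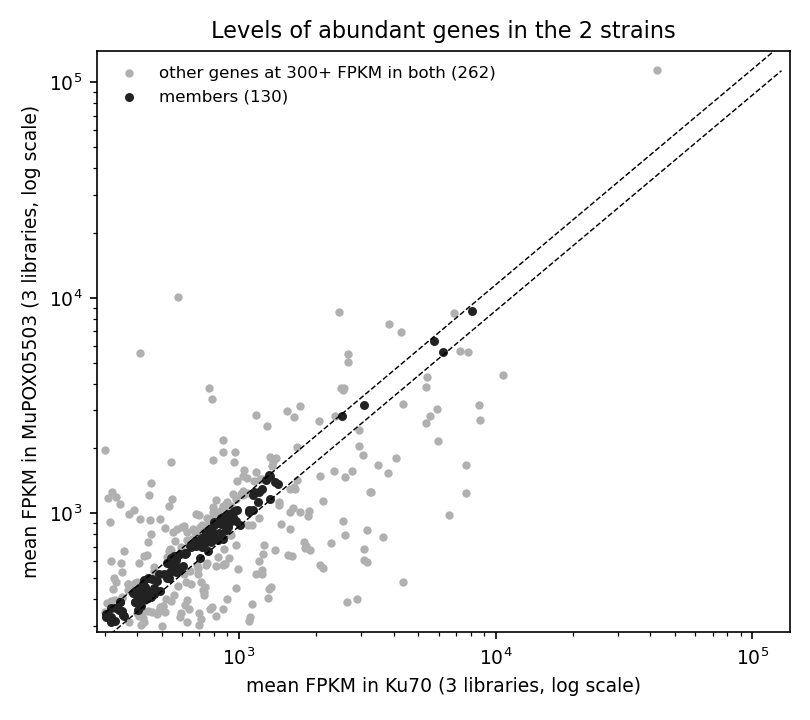
Mean FPKM in MuPOX05503 (vertical, log scale) against mean FPKM in Ku70 (horizontal, log scale), means of 3 libraries each, for the 392 genes at 300 FPKM or more in each strain. Black points are the 130 genes between the dashed limits of R, -0.2 and 0.2; grey points are the other 262.

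POX05554 was the most abundant of them and ranked 2 among all genes. Its FPKM was 7518, 9705 and 8759 in the MuPOX05503 libraries, against 7884, 8435 and 7903 in the Ku70 libraries. The ranges overlapped, with the mutant libraries both below and above all Ku70 values, and R was 0.10. POX03893 had 5479, 7085 and 6318 FPKM in MuPOX05503 and 5805, 5343 and 6071 FPKM in Ku70, with an R of 0.13. Its expected counts were not whole in any of the 6 libraries, as can happen when reads are shared with a near-identical copy, which was not tested, so its level is uncertain to that extent.

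POX01105 had 7196, 4838 and 4738 FPKM in MuPOX05503 and 5845, 6498 and 6396 FPKM in Ku70. MuPOX05503 replicate 1 lay above all Ku70 libraries and the other mutant libraries below them, so its R of -0.16 averages over values on either side. The mean was 5591 ± 1391 FPKM in MuPOX05503 and 6247 ± 351 FPKM in Ku70 (SD, n = 3 each). Without MuPOX05503 replicate 1 it would leave the group, as its remaining mutant libraries show.

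POX02606 was at 3239, 3025 and 3298 FPKM in MuPOX05503, against 2884, 3103 and 3255 FPKM in Ku70. Its libraries overlapped over most of their range, and R was 0.05. POX07201 had 2307, 3149 and 2986 FPKM in MuPOX05503 and 2723, 2349 and 2467 FPKM in Ku70. Its lowest and highest values were both in the mutant, and R was 0.16. POX07820, at 1509, 1486 and 1525 FPKM in MuPOX05503 and 1195, 1372 and 1372 FPKM in Ku70, did not overlap between strains, although its R of 0.20, just under the limit, kept it in the group.

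**Figure D2:**
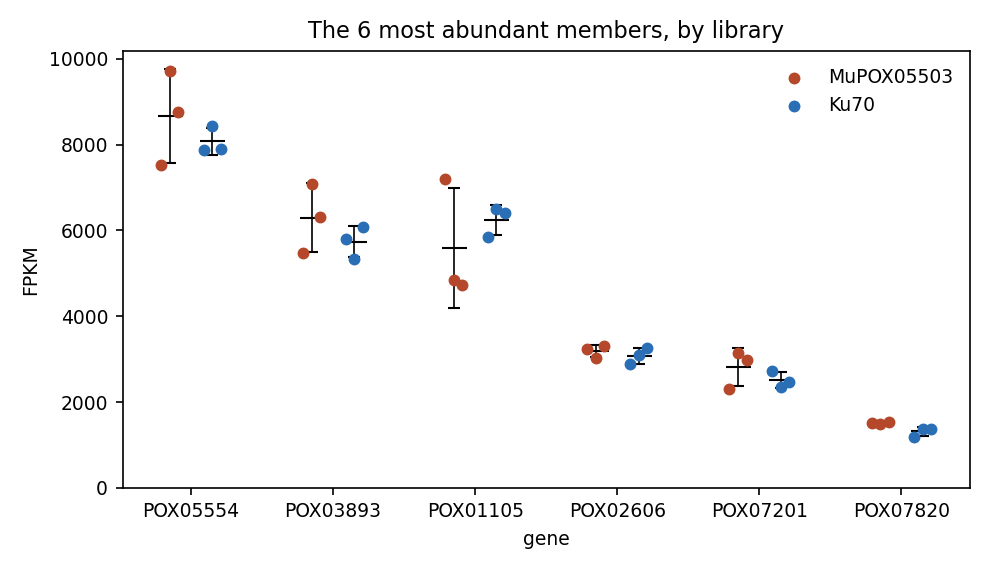
FPKM of the 6 most abundant of the 130 genes in each library (points; MuPOX05503 left, Ku70 right), with the mean and SD of 3 libraries as black marks. The strains overlap in 5 of the genes, and in POX07820 the MuPOX05503 libraries (1486 to 1525 FPKM) lie above the Ku70 libraries (1195 to 1372 FPKM).

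Together the 130 genes took 8.13%, 8.52% and 8.55% of all expected counts in the MuPOX05503 libraries, and 8.02%, 8.04% and 8.29% in the Ku70 libraries. The means were 8.40 ± 0.235% in MuPOX05503 and 8.12 ± 0.147% in Ku70 (SD, n = 3 each), and the ranges overlapped. The other 262 abundant genes took 31.9 ± 0.369% in MuPOX05503 and 34.1 ± 0.238% in Ku70 (SD, n = 3 each). The share was spread unevenly: 5 of the 130 genes held 2.06 ± 0.245% of all counts in MuPOX05503 and 1.94 ± 0.0389% in Ku70.

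Those 5 were POX03893, POX05554, POX07201, POX01198 and POX07502. POX03893 alone took 0.576 ± 0.0735% of the counts in MuPOX05503 and 0.525 ± 0.0337% in Ku70. POX05554 took 0.556 ± 0.0703% in MuPOX05503 and 0.517 ± 0.0202% in Ku70. POX07201 took 0.431 ± 0.0683% in MuPOX05503 and 0.385 ± 0.0290% in Ku70 (SD, n = 3 for each). The larger SD of the 5 genes in MuPOX05503 came with replicate 1 of that strain, where they held 1.79% of the counts, against 2.27% and 2.12% in replicates 2 and 3.

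The gene lengths behind the FPKM could be read from the files, because FPKM is the expected count divided by length and library total. The lengths implied by these values lay on a regular grid with a step of 3.11 to 3.12 bases, and all 130 genes lay within 0.3 bases of it. Model lengths that are multiples of 3, with a read total that exceeds the summed counts by a factor of 1.036 to 1.039, would give such a grid. Gene models of that kind hold coding sequence without untranslated regions. After dividing by the factor, the result is an effective coding length, which may be shorter than the model by a fixed number of bases, since an effective length leaves out the starts that a fragment cannot use.

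The 130 genes were short. Their median effective length was 560 bases, with quartiles at 398 and 900 bases, against 604 bases for the other 262 abundant genes and 1289 bases for the 7648 tested genes that had enough counts for a length. Below 600 bases lay 68 of the 130 genes and 131 of the 262 other abundant genes, against 1147 of those 7648. Shortness was thus shared with abundant genes that differed between the strains. FPKM is a level per length, so a floor on FPKM favours short genes, and how far that sets these shares was not tested.

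The shortest were POX08469 at 152 bases and POX07107 at 167 bases. POX08469 had 403, 445 and 466 FPKM in MuPOX05503 and 362, 439 and 379 FPKM in Ku70. POX07107 had 1212, 1207 and 1331 FPKM in MuPOX05503 and 946, 1280 and 1196 FPKM in Ku70. In each of them the lowest of the 6 values was Ku70 replicate 1, and the strains otherwise overlapped.

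The longest were POX04954 at 3746 bases and POX01198 at 3170 bases. POX04954 had 351, 255 and 339 FPKM in MuPOX05503 and 382, 285 and 315 FPKM in Ku70, where replicate 1 was the highest. POX01198 had 664, 872 and 819 FPKM in MuPOX05503 and 900, 837 and 803 FPKM in Ku70. At an FPKM that placed it 199 in rank, its length gave POX01198 0.259 ± 0.0355% of all counts in MuPOX05503 and 0.279 ± 0.0160% in Ku70 (SD, n = 3 each), the fourth largest share among the 130. Across the 130 genes level and length were hardly related (Spearman rho -0.03 across genes, which share their libraries and are not replicates).

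The rule set no limit on the spread between libraries of a strain. It used the means of the same libraries, though, and a gene with a large spread is less likely to fall within the limits of R, so the spread is not independent of the choice. The median CV of the 130 genes was 4.46% in MuPOX05503 and 9.20% in Ku70. The other abundant genes had 7.002% in MuPOX05503 and 9.48% in Ku70, and all tested genes had 9.37% in MuPOX05503 and 9.43% in Ku70; these differences between sets were not tested. In 95 of the 130 (73.1%) the CV was larger in Ku70, against 57.3% of the other abundant genes and 49.9% of all tested genes. Each of the median CVs exceeded the median that counting error gives in its own set. That was 1.35% for the 130 genes, 1.12% for the other abundant genes and 4.27% for all tested genes. The Ku70 value rested on a single library: over Ku70 replicates 2 and 3 alone the median CV of the 130 was 3.76%, against 10.1% without replicate 2 and 9.44% without replicate 3. Without Ku70 replicate 1 the Ku70 median also fell in the other abundant genes, to 5.42%, and in all tested genes, to 6.32%. In MuPOX05503 the median of the 130 was between 3.57% and 4.47% whichever library was left out.

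**Figure D3:**
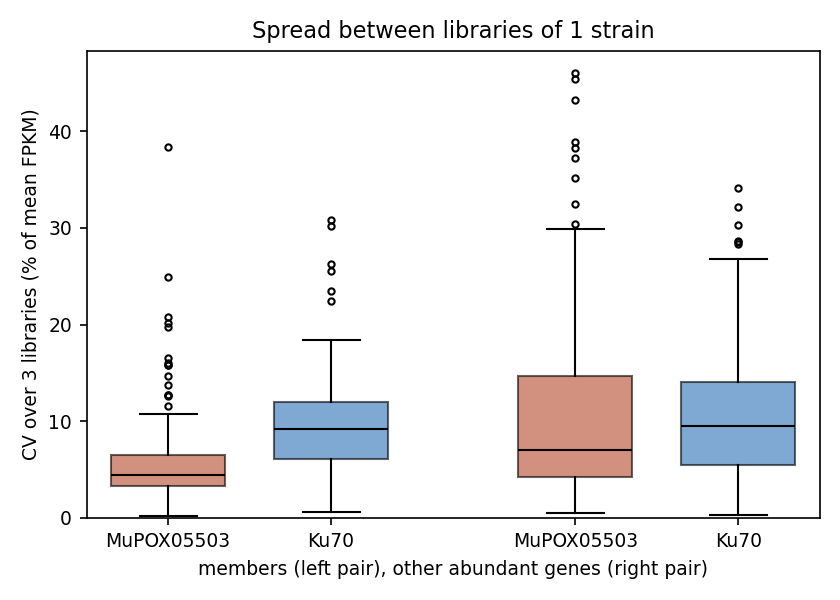
CV of FPKM over the 3 libraries of a strain, as a percentage of the mean, for the 130 genes (left pair) and the other 262 abundant genes (right pair); boxes hold the quartiles, the line is the median, whiskers reach 1.5 times the box height and points lie beyond. The 130 genes have a median of 4.46% in MuPOX05503 and 9.20% in Ku70.

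The steadiest gene of all those tested was in the group. POX04947 had 412, 416 and 430 FPKM in MuPOX05503 and 421, 425 and 426 FPKM in Ku70, a CV of 1.55% over all 6 libraries, a measure that includes the strain difference. The Ku70 values lay inside the mutant range, and no library of the mutant differed from a Ku70 library by more than 0.05 on the log2 scale. POX04941 had 314, 303 and 324 FPKM in MuPOX05503 and 311, 325 and 314 FPKM in Ku70, with a CV of 2.64%. POX08945 had 806, 759 and 764 FPKM in MuPOX05503 and 764, 790 and 752 FPKM in Ku70, with a CV of 2.71%. Both overlapped throughout as deposited. After division by TMM factors, the MuPOX05503 libraries of all 3 genes lay below the Ku70 libraries, as the scaling described further on moves every gene.

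A small R did not mean agreement of single libraries. Of the 9 pairs of a MuPOX05503 and a Ku70 library, all 9 were within 0.2 on the log2 scale for 19 of the 130 genes. In 15 genes some pair differed by at least 0.5. The median of the widest pair was 0.31. Over all tested genes it was 0.76, but the widest pair includes the strain difference that the rule limits, so the smaller value follows from the choice of genes. The standard error of R over the libraries had a median of 0.09 and reached 0.35, and R plus and minus 1 standard error stayed within the limits in 61 of the 130 genes.

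The largest spread in the mutant was that of POX04143, with 898, 401 and 641 FPKM in MuPOX05503 and 680, 570 and 590 FPKM in Ku70. Its R of 0.08 averaged over mutant libraries that differed by more than a factor of 2 (CV 38.4% in MuPOX05503 and 9.56% in Ku70). POX01105, described above, was next with a CV of 24.9% in MuPOX05503.

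The largest spread in Ku70 was that of POX06033. It had 610, 592 and 591 FPKM in MuPOX05503 and 680, 356 and 576 FPKM in Ku70, so that the Ku70 libraries lay on either side of a narrow mutant range (CV 1.77% in MuPOX05503 and 30.8% in Ku70). POX05545 behaved alike, with 898, 1011 and 956 FPKM in MuPOX05503 and 1127, 599 and 911 FPKM in Ku70 (CV 5.95% in MuPOX05503 and 30.2% in Ku70). In these genes Ku70 replicate 1 was the highest and Ku70 replicate 2 the lowest of all 6 libraries.

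That order within Ku70, replicate 1 highest and replicate 2 lowest, was found in 14 of the 130 genes, with effective lengths from 809 to 3746 bases. These are 10.8% of the 130, against 14.9% of the other abundant genes and 14.4% of all tested genes. All 6 genes of the 130 with a Ku70 CV above 20% were among them. Their median CV was 10.98% in MuPOX05503 and 13.5% in Ku70. In the mutant 9 of the 14 were lowest in replicate 1, against 62 of all 130 genes (47.7%). Replicate 2 was highest in 7 of the 14, against 33 of all 130 genes (25.4%). These differences were not tested.

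In most of the 130 genes Ku70 replicate 1 was low instead. It was the lowest Ku70 library in 98 of the 130 genes (75.4%), against 53.4% of the other abundant genes and 46.9% of all tested genes. Among the 68 genes below 600 bases it was lowest in 63 and highest in 0, with a median deviation of -0.16 from the strain mean of log2(FPKM + 1). Among the 30 genes of 1000 bases or more it was lowest in 13 and highest in 15, with a median deviation of 0.05. Of the 131 other abundant genes below 600 bases, 84 were lowest and 22 highest in Ku70 replicate 1 (median deviation -0.11). Of the 67 other abundant genes of 1000 bases or more, 24 were lowest and 29 highest in it (median deviation 0.01). It was the lowest Ku70 library in 739 of the 1147 tested genes below 600 bases. These length classes were drawn after the values were seen.

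Across the 130 genes the deviation of Ku70 replicate 1 from its strain mean rose with length (Spearman rho 0.53 across genes). The same rho was 0.43 over the 262 other abundant genes and 0.35 over the 7648 tested genes with a length, so this relation was not confined to the 130. For Ku70 replicates 2 and 3 rho over the 130 genes was -0.34 and -0.37; the 3 deviations of a strain sum to 0 in each gene and so are not independent. In the MuPOX05503 libraries it lay between -0.10 and 0.11. Ku70 replicate 1 also had the smallest sum of FPKM over all genes, 961985, against 993360 and 997300 in the other Ku70 libraries and 1022084 to 1027461 in MuPOX05503. The part of that library in the levels of the short genes was not tested otherwise than by leaving it out: the rule then took 143 genes, of which 112 were among the 130.

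**Figure D4:**
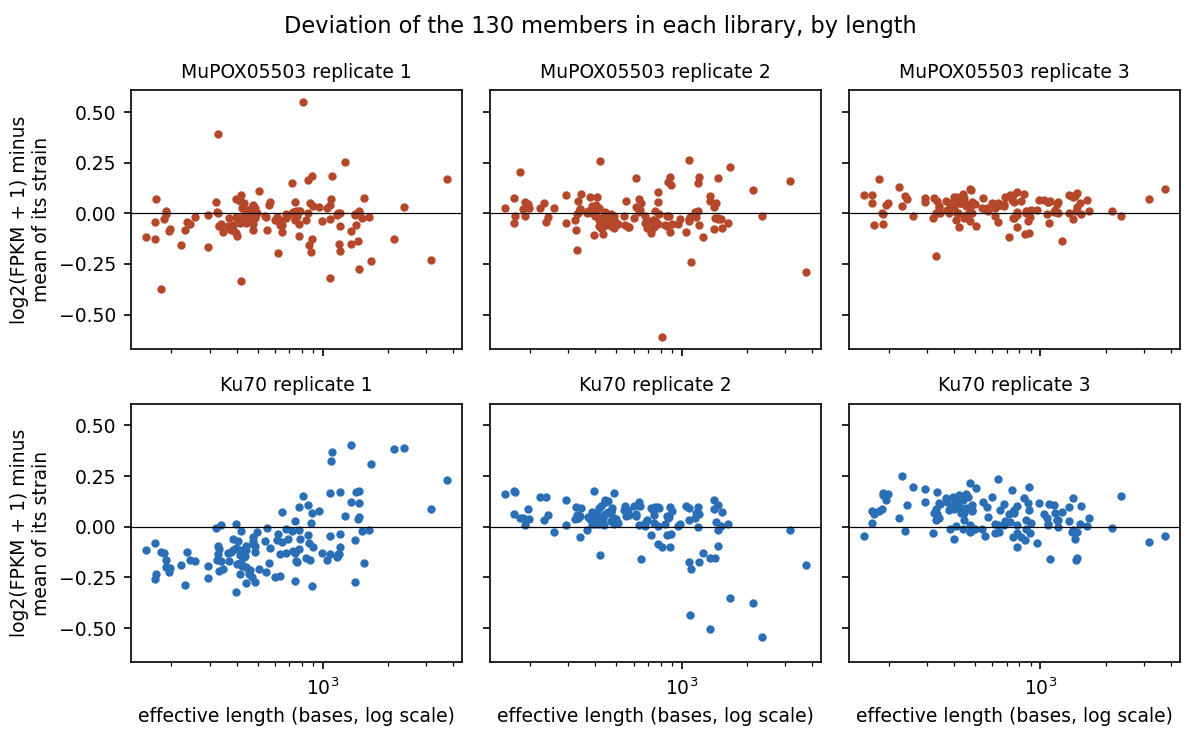
Deviation of log2(FPKM + 1) from the mean of its strain for the 130 genes in each library (MuPOX05503 top row, Ku70 bottom row), against effective length in bases on a log scale. In Ku70 replicate 1 genes below 600 bases lie mostly under the line (median -0.16) and those of 1000 bases or more on both sides (median 0.05).

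Which genes count as near-equal depended on how the libraries were scaled. FPKM as deposited is scaled to library totals, and on that scale the median R of all 8801 tested genes was 0.12, not 0. TMM factors, which centre the bulk of genes, were 1.03 to 1.06 in MuPOX05503 and 0.940 to 0.979 in Ku70. Dividing by them moved the median of all tested genes to 0.01 and the median of the 130 genes to -0.04, from 0.08 as deposited. Of the 130 genes 83 had an R above 0 and 47 below 0 as deposited; with TMM factors 44 were above 0 and 86 below 0. TMM shifts every gene by about the same 0.11, so this change of sign follows from the shift. With FPKM rescaled to equal sums, a smaller shift of 0.06, 71 were above 0 and 59 below 0.

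Applied to FPKM divided by TMM factors, the same floor and limits took 151 genes, of which 110 were among the 130. These are 84.6% of the 130 and 72.8% of the 151. All 20 genes that dropped out had a negative R as deposited, from -0.19 to -0.09. All 41 that entered had a positive R, from 0.16 to 0.31. Under DESeq2 size factors 105 of the 130 stayed, under upper-quartile factors 97, and under FPKM rescaled to equal sums 119. All 5 scalings, the deposited one included, held 97 of the 130, with R from -0.04 to 0.20 as deposited. These 97 took 6.47 ± 0.248% of all counts in MuPOX05503 and 6.03 ± 0.143% in Ku70 (SD, n = 3 each).

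**Figure D5:**
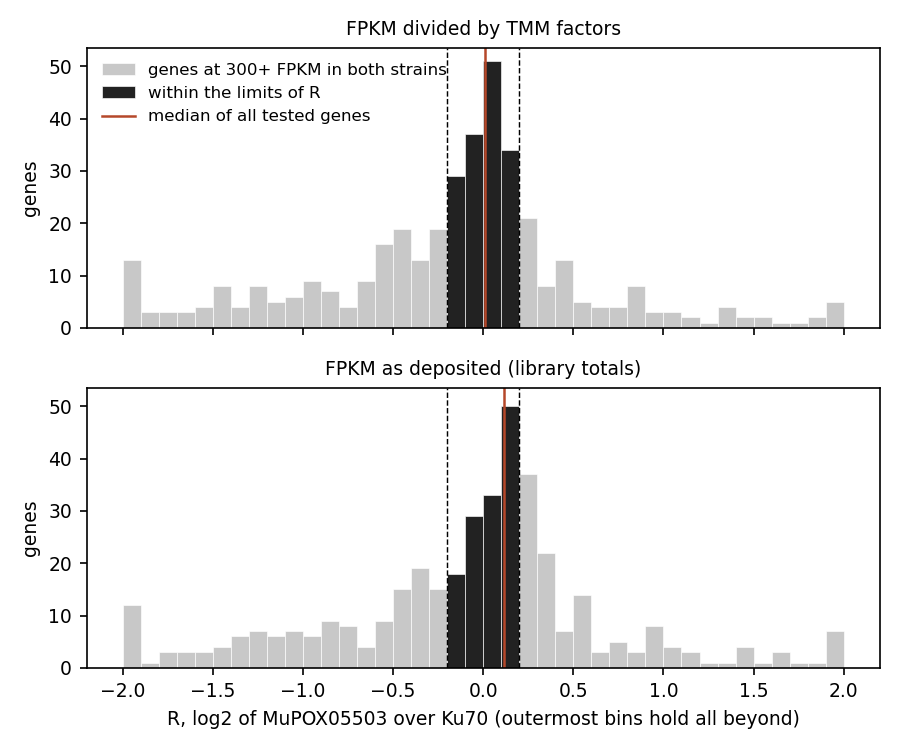
Number of genes (vertical) by R, the log2 ratio of MuPOX05503 over Ku70 (horizontal, bins of 0.1), for genes at 300 FPKM or more in each strain, with FPKM divided by TMM factors before the floor was applied (top) and as deposited (bottom); the outermost bins hold all genes beyond. Black bars lie within the limits of R, and the red line, the median of all tested genes, is at 0.01 in the top panel and at 0.12 in the bottom panel.

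The genome-wide edgeR quasi-likelihood test with TMM factors and Benjamini-Hochberg adjustment called 64.4% of the 8801 tested genes at an adjusted p under 0.05, and 32.6% were called lower in MuPOX05503. Of the 130 genes, 8 were called, all of them lower in MuPOX05503. With library totals in place of TMM factors the test called 65.7% of all genes and 0 of the 130, and 0 of the 130 had an unadjusted p under 0.05. Both counts were also 0 with limma on log2(FPKM + 1), which called 65.2% of all tested genes at an adjusted p under 0.05. The rule used the same contrast, so nothing is read from these counts. A gene that was not called is not shown to be equal in the strains.

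The 8 called genes all lay near the lower limit, with R from -0.19 to -0.16 and edgeR log2 fold changes from -0.30 to -0.27 on the TMM scale. The count was 16 without Ku70 replicate 1, where 61.3% of all tested genes were called, and 1 without Ku70 replicate 2, where 58.3% were. It was 0 without Ku70 replicate 3 (8 at an unadjusted p under 0.05), where 58.5% of all tested genes were called, and 1 without MuPOX05503 replicate 3, where 57.1% were. DESeq2 called 14 of the 130 and 62.5% of all tested genes. The test with the replicate letter as a block called 5 of the 130 and 62.8% of all tested genes. POX04335 had 889, 876 and 883 FPKM in MuPOX05503 and 921, 1038 and 1063 FPKM in Ku70, so all mutant libraries were lower, with an R of -0.19. POX04334, its neighbour by number, had 450, 414 and 437 FPKM in MuPOX05503 and 456, 511 and 508 FPKM in Ku70, again with all mutant libraries lower and an R of -0.18.

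As deposited, the libraries of the strains did not overlap in 18 of the 130 genes, with MuPOX05503 higher in 13 and lower in 5; this held for 71.4% of all tested genes. With TMM factors they did not overlap in 30 of the 130, with MuPOX05503 higher in 2 and lower in 28, and in 69.7% of all tested genes. The 5 lower as deposited were POX04334, POX04335, POX08351, POX08582 and POX09399, and the 2 higher with TMM factors were POX07820 and POX04940; POX08351, POX08582, POX09399 and POX04940 were picked out after their values were seen. The rule itself keeps small differences and the scaling shifts all genes alike, so nothing is read from these counts or from their split between directions.

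The limits cut through a continuous distribution. As deposited, 50 of the abundant genes had an R of 0.1 to 0.2 and 37 an R of 0.2 to 0.3, while 18 had an R of -0.2 to -0.1 and 15 an R of -0.3 to -0.2. POX07820 was the highest member, with an R of 0.198, and POX00430 came next, with 359, 350 and 381 FPKM in MuPOX05503, 284, 319 and 346 FPKM in Ku70, and an R of 0.197. Just outside were POX04093, at 632 ± 29.2 FPKM in MuPOX05503 and 549 ± 82.4 FPKM in Ku70 with an R of 0.201, and POX06961, at 867 ± 29.1 FPKM in MuPOX05503 and 753 ± 57.5 FPKM in Ku70, also with an R of 0.201 (SD, n = 3 each).

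At the lower limit POX04335 and POX01443 were the last inside. POX01443 had 1117, 1109 and 1259 FPKM in MuPOX05503 and 1244, 1391 and 1329 FPKM in Ku70, with an R of -0.186. POX03937, at 345 ± 20.2 FPKM in MuPOX05503 and 399 ± 20.9 FPKM in Ku70, and POX05677, at 525 ± 5.31 FPKM in MuPOX05503 and 611 ± 26.1 FPKM in Ku70 (SD, n = 3 each), were the nearest outside, with R of -0.212 and -0.219. The counts of POX05677 were not whole.

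At the floor, POX09280 had 360, 325 and 341 FPKM in MuPOX05503 and 265, 317 and 323 FPKM in Ku70, a Ku70 mean of 302 FPKM. POX07291 had 373, 308 and 307 FPKM in MuPOX05503 and 245, 322 and 345 FPKM in Ku70, a Ku70 mean of 304 FPKM. Both passed although Ku70 replicate 1 lay under 300 FPKM. Just below the floor were POX04611, with means of 334 FPKM in MuPOX05503 and 299 FPKM in Ku70, and POX08375, with means of 296 FPKM in MuPOX05503 and 334 FPKM in Ku70.

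By identifier number, 15 of the 130 genes had a directly numbered neighbour within the group, in 6 pairs and 1 run of 3. Among the 262 other abundant genes 43 had such a neighbour in their own set, which is larger, so that the counts are not comparable. Whether the numbers follow the chromosomes is not given in the sources used here. The run was POX04333 to POX04335. POX04333 had 616, 638 and 627 FPKM in MuPOX05503 and 481, 604 and 626 FPKM in Ku70, with a positive R of 0.14, while POX04334 and POX04335 had a negative R, as given above. In the pair POX07502 and POX07503 the levels were 1399 and 485 FPKM in MuPOX05503 and 1386 and 480 FPKM in Ku70, with an R of 0.01 in each; the pair was picked out after its values were seen.

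Counts were not whole within 0.005 in 4 of the 130 genes, each in all 6 libraries, against 3.68% of all tested genes. Besides POX03893 they were POX03758, at 386 ± 8.69 FPKM in MuPOX05503 and 344 ± 47.96 FPKM in Ku70 (SD, n = 3 each), and POX04076 and POX06696, both with an effective length of 293 bases. POX04076 had 914, 1090 and 1080 FPKM in MuPOX05503 and 794, 1040 and 1030 FPKM in Ku70. POX06696 had 948, 920 and 988 FPKM in MuPOX05503 and 737, 849 and 959 FPKM in Ku70. Both were lowest in Ku70 replicate 1 and otherwise overlapped. The fractions in the counts of POX04076 and POX06696 completed each other to whole numbers in all 6 libraries. In MuPOX05503 replicate 1, for example, the counts were 3857.9 and 4000.1. Reads divided between both genes would give such fractions, so their levels may not be separate. Sequences were not compared. Whether reads of the 4 genes are shared with a copy was not tested otherwise, and their levels are uncertain to that extent. For none of the 130 could reads from an overlapping gene on the other strand be separated, since no source used here states the strand setting.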

How the data were processed

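The authors deposited 1 table per library with an expected count and an FPKM value for each of 9834 genes. Expected counts are estimated, unnormalized counts per gene, per the file headers; the deposited FPKM is relative to gene length and sequencing depth. The submitters' processing notes list RSEM 1.2.12, Bowtie2 2.1.0, BWA 0.7.10-r789 and DESeq2 without saying what each did. Genome build, annotation and strand setting: not given in the sources used here. Per the labels, strain defines the groups.

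The rule was applied to the deposited FPKM. The 8801 genes that reached 1 FPKM in 3 or more libraries were tested with edgeR 4.0.16 in R 4.3.3. The test used expected counts rounded to whole numbers (TMM, quasi-likelihood test, Benjamini-Hochberg adjustment, strain as the only term, threshold 0.05). The procedure was also tried on simulated counts. No result of that trial is given here, so it supports no call among genes with differences as small as the rule allows. Lengths are the expected count over FPKM and library total, scaled to bases and divided by the library's factor, for counts of at least 100. Alternatives used limma 3.58.1 and DESeq2 1.42.0. Total expected counts were 13653016 to 14263916 per library. The rule and the named genes (extremes of level, share, R, CV, length and test, the runs of numbers and the genes nearest the limits) were chosen with earlier results of these data known.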

Additional observations from a re-analysis of the deposited data

How the results depend on the processing

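The limits of the choice are these. The count of 130 genes was 130 to 154 under the other scalings, pseudocounts of 0.1 and 10 and medians in place of means, and 118 to 143 with each library left out. It was 186 and 89 with floors of 200 and 500 FPKM, and 62 and 182 with limits on R of 0.1 and 0.3. Upper-quartile factors kept 97 of the 130, leaving out Ku70 replicate 1 kept 112 and took in 31 others, and leaving out Ku70 replicate 3 kept 107 and took in 11. At this depth the CV between libraries was below the CV that counting error gives in 14 of the 130 genes in MuPOX05503 and in 1 in Ku70.

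The share of counts followed the genes taken. In MuPOX05503 it was 9.95% with TMM factors, 9.93% with DESeq2 size factors, 10.2% with upper-quartile factors, 8.93% with equal FPKM sums, 9.84% and 7.05% with floors of 200 and 500 FPKM, and 3.21% and 11.7% with limits on R of 0.1 and 0.3. In Ku70 it was 9.06%, 9.004%, 9.09%, 8.40%, 9.54% and 6.80%, and 3.19% and 11.3%, under the same settings. Leaving out each library gave 7.02% to 9.37% in MuPOX05503 and 6.74% to 9.10% in Ku70. By the construction of these alternatives other genes enter the sum.

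The median CV with each library left out and the rule applied again was 3.43% to 4.92% in MuPOX05503 and 3.79% to 10.03% in Ku70. The median effective length was 569 bases for genes with whole counts in every library and 582 bases with the library factor left in. Genes whose strains did not overlap numbered 30 with TMM factors (69.7% of all tested genes) and 24 to 42 with each library left out (74.1% to 77.7% of all tested genes), where fewer libraries make a gap more frequent. The count of the 130 genes called was 0 with library totals, where 65.7% of all tested genes were called. It was 0 with limma at either pseudocount (65.2% of all tested genes at 1 and 64.7% at 0.1). DESeq2 called 14 (62.5% of all tested genes) and the replicate block 5 (62.8%). With each library left out the count was 0 to 16 (57.1% to 63.7% of all tested genes). The cause was not tested. The replicate block used the letters in the titles, and deviations of libraries with the same letter correlated at 0.00, -0.03 and -0.02 over all tested genes, so the letters are not taken to pair the libraries. It called 5529 of all tested genes, against 5672 without it. Of 325 fold changes of the 25 named genes of the group under the other tests, 313 moved by less than the spread between libraries, and 12 moved by more. Only 3 of the 25 were called, and 0 of these turned sign; of the 25, 13 changed sign under at least 1 other scaling or test or without 1 library. The scaling to equal FPKM sums and the library factor of the lengths were chosen after the data were seen.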
